A study of Mus musculus with 8 samples.

Results

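The SurePrint G3 mouse array carries a series of oligonucleotide probes aimed at long intergenic transcripts. Each of these probes is named by a genome interval and a suffix, F or R, for its strand, instead of by a gene. The interval probes taken here are those that lie in array column 70 or higher, because both arrays of the sedentary group have dim areas in the lower columns. They number 9429 probes in 3153 intervals and 4064 interval strands, out of 16181 such probes in 3540 intervals on the whole array. The comparison set is 22944 probes for genes and other transcripts in the same columns. Intervals are given in the mouse build mm9, which the file headers name. The files used here hold no probe sequences and do not state whether F or R names the strand of the probe or of the RNA. Whether each interval is free of genes was not checked.

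Total RNA came from hippocampus. The mice were C57BL/6J males aged 11 weeks, in 4 groups of 8. Sedentary mice (SED) and mice that ran on a treadmill at mild intensity (ME) ate a powder diet with 0.5% of a placebo powder. Sedentary (AX) and mildly exercised mice (AX+ME) ate the same diet with 0.5% of a powder that held 2% astaxanthin, a carotenoid antioxidant from the alga Haematococcus pluvialis. Each group has 2 samples, 1 labelled with Cy3 and 1 with Cy5, and each sample has an array of its own on 1 shared slide. How 8 mice became 2 samples is not stated, so p-values measure only the spread between these samples, which may be technical. Each group also sits at its own place on the slide, so group and place cannot be told apart.

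Long intergenic noncoding RNAs are transcribed from stretches between protein-coding genes, are often spliced and polyadenylated, and code for no known protein. They are known for low levels and for marked differences between tissues, and brain expresses many of them. Some act in the nucleus on chromatin or on RNA bodies, as XIST does in silencing an X chromosome and NEAT1 does as the scaffold of paraspeckles, while most have no described role. A single stretch can be transcribed from either strand or from both, which is why some intervals on the array have probes for both strands.

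The intervals fell into a pair of designs. By the probes of the whole array, 1049 of the 3153 intervals had probes for both strands. They held 5667 of the probes used here, were at least 5026 bp long and had a median length of 17901 bp. The other 2104 intervals had probes for 1 strand only, held 3762 probes and had a median length of 2257 bp, with a range from 62 bp to 7128487 bp. An interval of the first design had a median of 5 probes and at most 16, and one of the second a median of 2 and at most 6. Intervals overlapped: 1750 of the 3153 shared bases with at least 1 other interval, in 1210 pairs.

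The probes of the same series that are named after known noncoding RNAs showed which signals are present in this tissue. All 3 probes for NEAT1 and both for NEAT2, the transcript also called Malat1 that marks nuclear speckles, were well above background on all 8 arrays, with mean log2 signals of 1.70 to 2.74 and of 1.11 and 1.25. These and all later levels are log2 of the signal divided by the 75th percentile of its array, so that 0 is that percentile, and -7.64 is the floor set on the scale. TUG1 and BRN1-A also gave bright probes, at up to 1.87 and 4.41. NRON had probes at -0.0081 and -1.43, well above background on all 8 arrays, and at -5.78 and -6.14, on 5 and 3 arrays. KCNQ1ot1 had probes at -0.97 and -2.92 on all 8 arrays and 1 at -6.07 on 3. Those for H19, at -6.39 and -7.53, were well above background on 2 and 0 arrays. None of the 4 probes for lincP21, a p53-induced transcript, nor the pair for TSIX, the antisense partner of XIST, was well above background on any array. XIST itself, which is transcribed from the inactive X chromosome of females, had 4 probes, and each was well above background on at most 1 array of these male mice. HOTAIR, from the HoxC cluster, had 1 probe of 3 well above background on all 8 arrays, at -3.32, with the others at the floor. Of 35 noncoding RNAs listed by symbol, 8 had gene probes in these columns, and 10 of their 12 probes were well above background on all 8 arrays. None of these named probes passed the test in any of the 5 pairwise comparisons.

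Interval probes were detected less often than gene probes on every array. A probe counted as detected where the extraction software called its spot well above background in the dye of the sample. On the Cy3 arrays 60.8% of interval probes were detected in SED, 60.3% in ME, 65.9% in AX and 58.9% in AX+ME. On the Cy5 arrays the shares were 52.9%, 46.3%, 45.3% and 50.5%. Gene probes gave 76.2% to 79.8% on Cy3 arrays and 69.3% to 73.4% on Cy5 arrays. Every Cy3 array was above every Cy5 array, and AX had the highest share of the 4 groups in Cy3 and the lowest in Cy5. Each dye holds 1 sample of each group, so dye and replicate sample cannot be told apart. In the channel of each array that held no sample, 0.403% to 0.658% of interval probes were called well above background. For gene probes it was 0.828% to 1.81%. Since that channel held no sample, these shares do not give the rate of false calls in the dye of the sample.

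**Figure D1:**
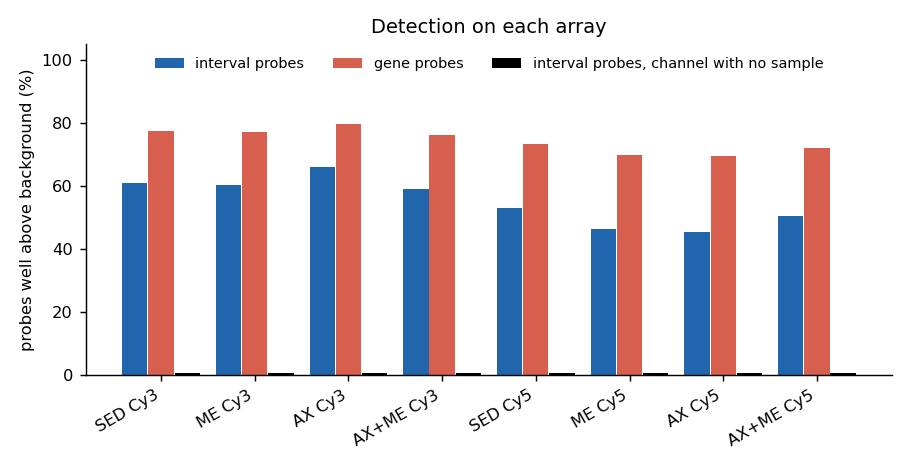
Percent of probes well above background on each of the 8 arrays, for interval probes (blue) and gene probes (red) in the dye of the sample and for interval probes in the channel with no sample (black). Interval probes lie between 45.3% and 65.9% and gene probes between 69.3% and 79.8%, against at most 0.658% in the channel with no sample.

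Over all arrays, 3984 interval probes (42.3%) were detected on all 8, 2842 on 1 to 7 and 2603 (27.6%) on none. Among gene probes 67.6% were detected on all 8 arrays and 16.6% on none. At least 1 probe was detected on all 8 arrays in 1964 of the 3153 intervals (62.3%). That share was 82.0% for intervals with probes on both strands and 52.5% for the others, while the share of probes detected was nearly the same in both designs, at 42.2% and 42.4%.

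Detection varied with interval length and chromosome. In intervals with probes for 1 strand, 30.3% of probes were detected on all 8 arrays where the interval was up to 500 bp long, 40.1% in the next class, up to 1000 bp, 51.2% in the next, up to 2000 bp, and 47.8% at over 50000 bp. In intervals with probes on both strands the share lay between 40.0% and 44.8% in all 4 length classes. By chromosome it ran from 33.2% of 413 probes on chromosome 10 and 34.8% of 431 on chromosome 9 to 48.0% of 573 on chromosome 5 and 52.0% of 179 on chromosome 19. These shares describe probes, which share intervals and arrays, and were not tested.

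Interval probes were also dimmer. Brightness depends on the probe as well as on the RNA, so it does not rank transcripts by abundance. The median over all interval probes was -5.50 against -2.29 for gene probes, a difference of -3.21 whose values in single samples had an SD of 0.0711 (n = 8). Among probes detected on all 8 arrays the medians were -2.78 and -0.14, and the quartiles of interval probes ran from -3.87 to -1.20. Only 597 of the 3984 (15.0%) were brighter than the median gene probe detected on all 8. Interval probes gave 4.96% to 5.44% of the summed signal of interval and gene probes.

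**Figure D2:**
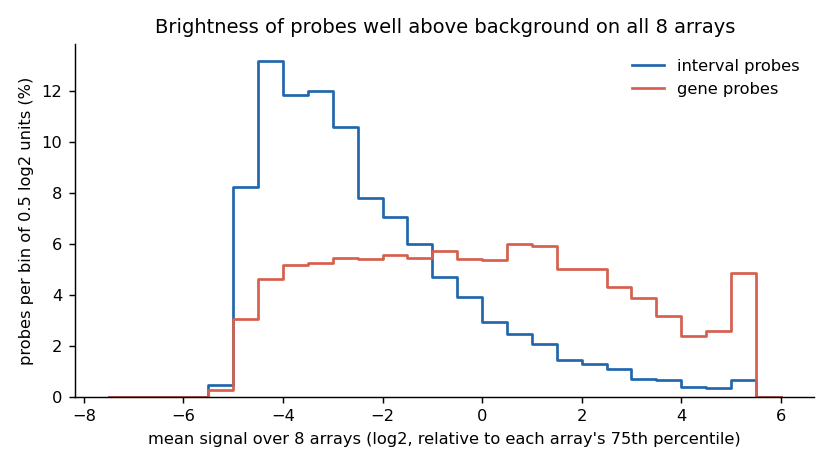
Distribution of the mean log2 signal over 8 arrays, in bins of 0.5, for 3984 interval probes (blue) and 15518 gene probes (red) detected on all 8 arrays. Interval probes pile up at the dim end around their median of -2.78, and gene probes spread broadly around -0.14 up to the bright end where spots saturate.

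A few interval probes reached the upper limit of the scanner. Spots of 29 interval probes (0.308%) were saturated on at least 1 array, against 3.66% of gene probes, and 17 were saturated on all 8. These 17 included 3 probes of chr17:17481706-17482457 strand R (752 bp), 3 of chr14:77006215-77063293 strand R, 2 of chr19:5801802-5802597 strand R and 1 of chr17:39982023-39983277 strand F. Saturated spots have a level that is only a lower bound. The 29 saturated probes held 20.5% to 27.5% of the summed signal of all interval probes.

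Ranked by their brightest unsaturated probe, the first 10 intervals lay between 4.54 and 5.11. The first was chr5:26323150-26357875 strand R, whose brightest unsaturated probe gave 5.34 and 4.84 in SED (Cy3, then Cy5), 5.33 and 4.97 in ME, 5.28 and 4.86 in AX and 5.23 and 5.0 in AX+ME. Its Cy3 values were all above its Cy5 values and the groups overlapped. The next were chr4:141527564-141547339 strand F at a mean of 4.82 over 8 samples, chr1:182685730-182689074 strand F at 4.72, chr6:90915489-90940052 strand R at 4.67, chr12:119825125-119850750 strand F and chr18:36449530-36456800 strand F at 4.66 each, and chr4:136856064-136877219 strand R at 4.64. The remaining 3 were chr4:123572090-123581365 strand R at 4.56, chr14:77006215-77063293 strand R at 4.55 and chr5:112205091-112240992 strand F at 4.54. Of these intervals, chr14:77006215-77063293 also holds saturated probes on strand R, so its level here is not that of its brightest probe. For chr4:123572090-123581365, SED gave 4.36 and 4.41, below the 6 other samples at 4.49 to 4.72.

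Probes of 1 interval and strand often differed from each other. Among 1460 interval strands with at least 3 probes, 846 had some probes detected on all 8 arrays and others not, 393 had none and 221 had all. Where at least 2 probes of an interval strand were detected on all 8 arrays, which held for 1006 interval strands, the brightest exceeded the dimmest by a median of 1.42 log2 units, with quartiles of 0.68 and 2.77.

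In the columns used here both strands had probes in 911 of the 1049 intervals, and these were compared. At least 1 probe was detected on all 8 arrays on both strands in 405 of them (44.5%), on F only in 171, on R only in 205 and on neither in 130. In 41.3% of the intervals 1 strand alone was detected. Strand F was detected in 66.4% of the intervals in which R was and in 56.8% of those in which R was not. The share with 1 strand detected was 31.4% where detection on both arrays of at least 1 group was enough, and 33.4% where every probe of a strand had to be detected.

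**Figure D3:**
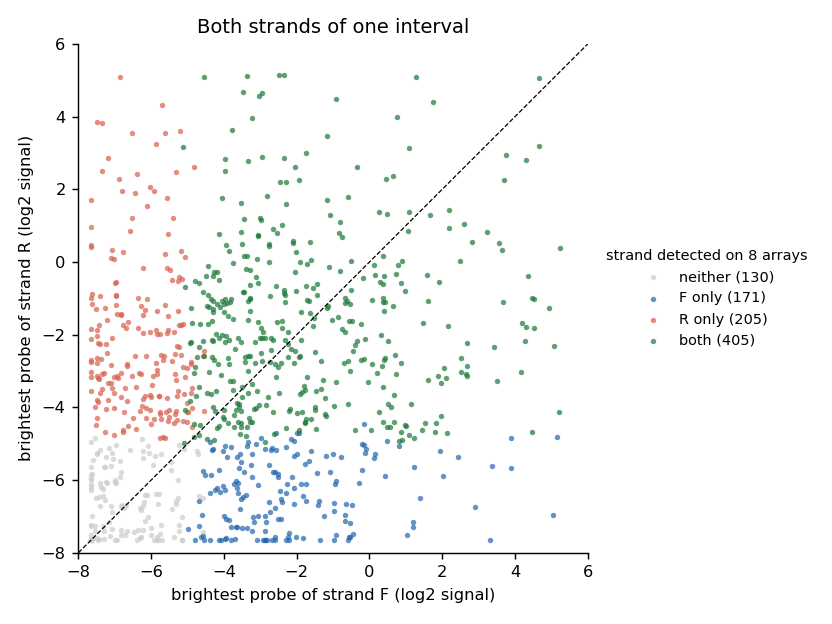
Mean log2 signal of the brightest probe of strand F (horizontal axis) and of strand R (vertical axis) in each of 911 intervals, coloured by the strand detected on all 8 arrays. The 405 intervals detected on both strands scatter widely about the dashed line of equal signal, while 171 with F alone lie at the lower right and 205 with R alone at the upper left.

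Detection on both strands did not mean equal signal. In the 405 intervals the brightest probes of the strands differed by a median of 2.11 log2 units. They differed by over 4-fold in 209 intervals (51.6%) and by at most 2-fold in 115 (28.4%). Since probes differ in how well they hybridise, these gaps are between probes and need not be between transcripts.

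The clearest strand bias was in intervals where no probe of the other strand was above background on any array. With at least 2 probes required on each strand, 38 of 612 intervals met this. In chr3:100363012-100369462 (6451 bp) the brightest R probe lay between 3.75 and 3.99 in the 8 samples, and the brightest of 3 F probes at -7.64 to -7.13. In chr19:6268793-6276607 (7815 bp) the brightest R probe lay at 3.69 to 3.99 and all 4 R probes were detected on some array, with F at -7.64 to -6.32. The others of the 5 brightest were chr13:66381200-66410200, with a mean of 1.03 on F and -7.52 on R, chr17:88466300-88495175, with 0.96 on R and -7.64 on F, and chr7:48794017-48815817, with -0.56 on F and -7.57 on R. In these 5 intervals, detection of that strand in all 4 groups was fixed by the choice, which required a probe detected on all 8 arrays. Of the strand's probes, 1 of 3 met this in chr3:100363012-100369462, 3 of 4 in chr19:6268793-6276607 and 1 of 4 in chr13:66381200-66410200. It was 1 of 2 in both chr17:88466300-88495175 and chr7:48794017-48815817. In all but chr19:6268793-6276607 the pattern thus rested on 1 probe detected on all 8 arrays.

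Bright signal on both strands was found in chr18:36449530-36456800, where the brightest probes had means of 4.66 on F and 5.05 on R (saturated on 6 arrays) and 8 of 9 probes were detected on all 8 arrays. It was followed by chr12:119825125-119850750, with 4.66 on F and 3.18 on R from 1 probe each, and by chr17:39960567-39992817, with 3.75 on F and 2.93 on R and all 6 probes detected. The last of the 5 were chr14:33923944-34003394, with 4.31 and 2.81, and chr5:35975265-35982561, with 3.70 and 2.26.

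Shorter 1-strand intervals that lie inside a longer interval with probes for both strands gave a further view of strand. There were 647 such pairs. Where the inner interval was detected, the outer one was detected on the same strand in 289 of 371 pairs (77.9%) and on the opposite strand in 259 (69.8%). Where the inner interval was not detected, these shares were 62.3% and 58.3% of 276 pairs. Pairs share outer intervals and were not tested.

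The test of group differences used the 5043 interval probes that both arrays of some group placed well above background, together with all other such probes, 21949 in all. A probe that enters through the group where it is high had to differ, so the counts below are read beside the share of all tested probes, and not as support. A difference was judged by limma with Benjamini-Hochberg adjustment over all 21949 probes. Beside this, probes at least 1.5-fold apart in the same direction in both dyes were counted, which is a rule of size with 1 sample per group and dye. Interval probes were noisier than gene probes: the median SE of a pairwise difference was 0.102 against 0.0685. In this bulk tissue, fewer cells of a type and less RNA per cell cannot be told apart.

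As a whole, interval probes were slightly higher in the astaxanthin groups. The median difference between AX and SED was 0.067 for interval probes and -0.0083 for gene probes, and 62.8% of interval probes were above 0 against 47.8% of gene probes. Between AX+ME and SED the medians were 0.086 and -0.0036, and between AX+ME and ME they were 0.078 and -0.0081. Between ME and SED they were 0.0082 and 0.0055, and between AX+ME and AX 0.015 and 0.0081, so the medians of interval and gene probes were further apart in the 3 comparisons that add astaxanthin. The comparisons share control samples and are given side by side.

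The offset was present in each dye and each brightness class. The median of interval probes exceeded that of gene probes by 0.11 in Cy3 and 0.067 in Cy5 for AX+ME against SED, by 0.11 and 0.058 for AX against SED and by 0.098 and 0.064 for AX+ME against ME. By brightness, the excess was 0.048 to 0.075 in all 7 classes for AX+ME against SED. It was 0.049 to 0.074 for AX against SED and 0.019 to 0.061 for AX+ME against ME. For AX+ME against ME, the classes -1 to 0, 0 to 2 and above 2 gave 0.019, 0.021 and 0.033. The same classes gave 0.019, 0.020 and 0.034 for ME against SED, which adds no astaxanthin. Among probes detected on all 8 arrays, 48.5% of interval probes were higher and 22.0% lower in both dyes in AX+ME than in SED, against 34.3% and 35.2% of gene probes. With gene probes weighted to the brightness of the interval probes the excess was 0.062 for AX+ME against SED, 0.057 for AX against SED and 0.045 for AX+ME against ME. With quantile normalization it was 0.05, 0.043 and 0.031, and with no filter, where many probes sit at the floor, it was 0.00032, 0 and 0.021.

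In each sample, the median interval probe detected on all 8 arrays lay below the median gene probe by an amount that differed by diet. That difference was -2.70 and -2.69 in SED (Cy3, then Cy5), -2.69 and -2.66 in ME, -2.60 and -2.61 in AX and -2.61 and -2.58 in AX+ME. For these probes, all 4 samples with astaxanthin were above all 4 without it. Over all interval and gene probes the diets overlapped: the difference was -3.18 and -3.11 in SED, -3.23 and -3.20 in ME, -3.09 and -3.17 in AX and -3.06 and -3.03 in AX+ME. Of 162 tested probes for genes that RefSeq classes as long noncoding RNA, the medians were -0.014 for AX against SED, 0.0072 for AX+ME against SED and -0.00079 for AX+ME against ME, beside those of protein-coding genes at -0.015, -0.0065 and -0.013. Gene probes without a RefSeq gene had medians of 0.01, 0.0026 and 0.0057.

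**Figure D4:**
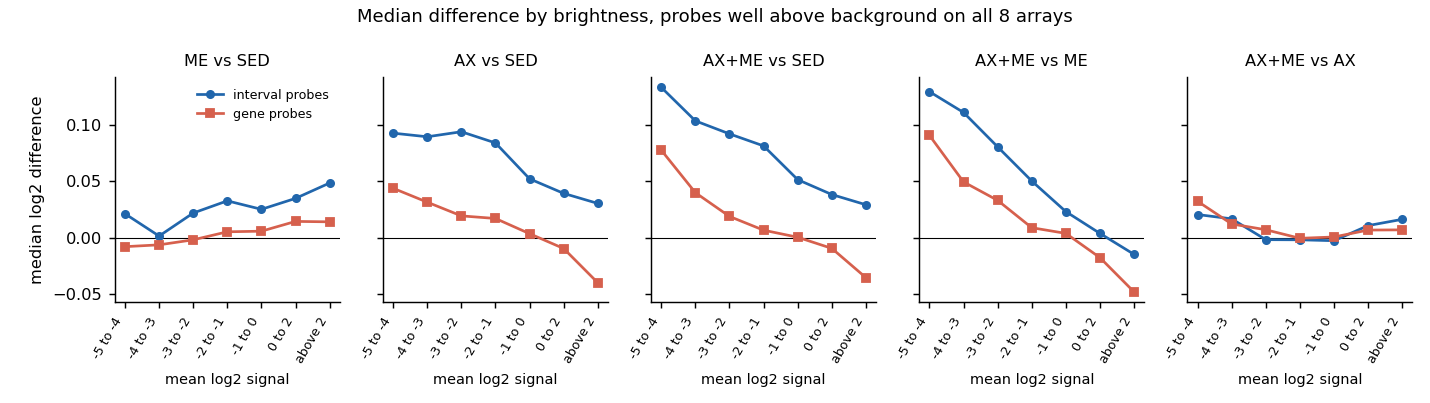
Median log2 difference (vertical axis) of interval probes (blue) and gene probes (red) in classes of mean log2 signal (horizontal axis), for 5 comparisons of probes detected on all 8 arrays. Interval probes lie above gene probes in every class in the first 4 panels, by 0.048 to 0.075 in AX+ME against SED, and both lie near 0 in AX+ME against AX.

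Markers of the tissue and its neighbours were measured beside these differences. All 6 measured markers of hippocampal neurons were detected on all 8 arrays, and their summed scaled signal ran from 61.7 in AX+ME to 69.6 in SED. The sum over 7 choroid plexus markers, lower sample first, was 49.3 and 66.4 in SED and 48.0 and 58.9 in ME. It was 52.2 and 61.5 in AX and 50.5 and 52.2 in AX+ME, so each group overlapped SED. Ttr was the brightest of these markers, at a mean log2 signal of 5.14, and weighs most in the sum. Pituitary markers (4 measured, Tshb on no array) summed to 1.44 and 1.53 in SED, 0.67 and 0.682 in ME, 1.08 and 1.12 in AX and 1.02 and 1.04 in AX+ME. Hypothalamic markers (3 measured) summed to 0.451 and 0.541 in SED and to 0.239 to 0.353 in the other groups. Meningeal fibroblast markers (2 measured) ran from 2.16 in ME to 2.98 in SED, and striatal markers (4 measured) from 0.439 in ME to 0.575 in AX+ME. The only measured red blood cell marker gave 0.12 and 0.128 in AX+ME against 0.0684 to 0.0783 elsewhere. No marker passed the test in the 5 pairwise comparisons, and the part of these cell types in the interval probes' differences was not tested.

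In AX+ME against SED, 1 interval probe passed the test, and it was higher in AX+ME. This was 1 of 5043, beside 0.0137% of all tested probes. It maps to chr7:100195448-100195894 strand R, an interval of 447 bp with 3 probes. Its signal was -6.66 and -6.79 in SED (Cy3, then Cy5), -6.30 and -6.49 in ME, -6.03 and -6.20 in AX and -5.16 and -5.23 in AX+ME. Both AX+ME samples were above the 6 others, and neither SED sample was well above background, so the difference is a bound of at least 2.13-fold (limma, adjusted p = 0.023). The probe was well above background on both arrays in AX+ME only, and on 1 array each in ME and AX. It entered the test only through AX+ME, where it is high, so its p-value and size are not read as support. The measured log2 difference was 1.53, with an SE of 0.051. The other probes of the interval were not tested. Without any 1 of the 8 samples the adjusted p was 0.122 to 0.174, and with normexp background correction it was 0.0867.

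At 1.5-fold in both dyes, 161 interval probes were higher and 41 lower in AX+ME than in SED, which is 3.19% and 0.813% of those tested beside 1.49% and 0.487% of all tested probes. With quantile normalization the split was 118 higher and 71 lower. The 161 lay in 157 intervals and 58 of them were detected on all 8 arrays. Other tested probes of the same interval and strand pointed the same way in 91 of 144 cases (63.2%), beside 63.4% of all interval probes above 0 in this comparison.

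The call count of this comparison depended on the filter. When only probes detected on all 8 arrays were tested, 313 interval probes passed as higher and 53 as lower in AX+ME, 9.19% of 3984, beside 7.24% of all 19520 probes. The adjusted p of these calls lay between 0.0399 and 0.0498, close to the threshold, and 71 of them were over 1.5-fold. Gene probes were called in both directions almost equally under that filter, with 547 higher and 499 lower.

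None of the interval probes that came next by unadjusted p passed the test, and some of them were near background outside AX+ME. For chr17:17462450-17488725 strand R, SED was at -7.64 and -6.76, ME at -6.35 and -5.71, AX at -6.43 and -5.70, and AX+ME at -5.30 and -4.86. SED was lowest and AX+ME highest, at least 2.31-fold apart (adjusted p = 0.0639 by limma). This interval overlaps the saturated interval chr17:17481706-17482457, whose 3 probes of the same strand were saturated on all 8 arrays and give no direction. For chr2:75447542-75448025 strand R (484 bp), both SED samples were at the floor, ME was at -6.38 and -6.02, AX at -6.31 and -6.52, and AX+ME at -5.39 and -5.28. AX+ME alone was well above background on both arrays, at least 1.93-fold over SED (adjusted p = 0.0639 by limma). The probes of chr17:17462450-17488725 and chr2:75447542-75448025 entered the test only through AX+ME, so their p-values are not read as support.

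A pair of brighter probes showed AX+ME above the other 6 samples with all 8 arrays above background. For chr5:37051650-37110575 strand F (58926 bp), SED was at -4.80 and -5.04, ME at -5.0 and -5.14, AX at -4.67 and -4.77 and AX+ME at -3.94 and -4.11. The log2 difference to SED was 0.89 (SE 0.051, adjusted p = 0.0639 by limma). Of the opposite strand, 3 of 3 probes had the same sign, beside 63.4% of all interval probes above 0. The same held for 3 of 3 in AX+ME against ME and for astaxanthin averaged over activity. It held for 0 of 3 in AX+ME against AX and in the interaction. For chr9:75316023-75344401 strand F, SED was at -4.60 and -4.87 and AX+ME at -3.87 and -4.05, but only 2 of 6 other probes of the strand had the same sign. For chr6:93570531-93599006 strand R, SED was at -5.70 and -6.04, below the 6 other samples at -5.16 to -4.66.

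Among lower values in AX+ME, chr7:134643558-134644056 strand F (499 bp) had -2.70 and -4.12 in SED and -4.41 and -5.05 in AX+ME. The SED samples were far apart, and the fitted difference was -1.32 (SE 0.21, adjusted p = 0.0648 by limma). For chr1:88339354-88345004 strand R, SED was at -4.64 and -4.68, ME at -5.44 and -5.47, AX at -4.91 and -5.09 and AX+ME at -5.36 and -5.65. Both exercised groups were below both sedentary groups. For chr14:33975934-33998694 strand R, SED was at -5.73 and -5.15 and AX+ME, at -7.22 and -7.04, was not well above background, at least 1.39-fold lower. The probe entered the test only through SED, where it is high, so its size is not read as support. Its interval lies inside chr14:33923944-34003394, whose brightest R probe had a difference of the opposite sign, 0.34 (SE 0.055). The remaining 2 were chr8:34646787-34680312 strand F at a difference of -0.81 and chr13:54397214-54407430 strand F at -1.17. An interval overlapping the latter on its strand had a difference of the opposite sign in its brightest probe, 0.12 (SE 0.042).

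**Figure D5:**
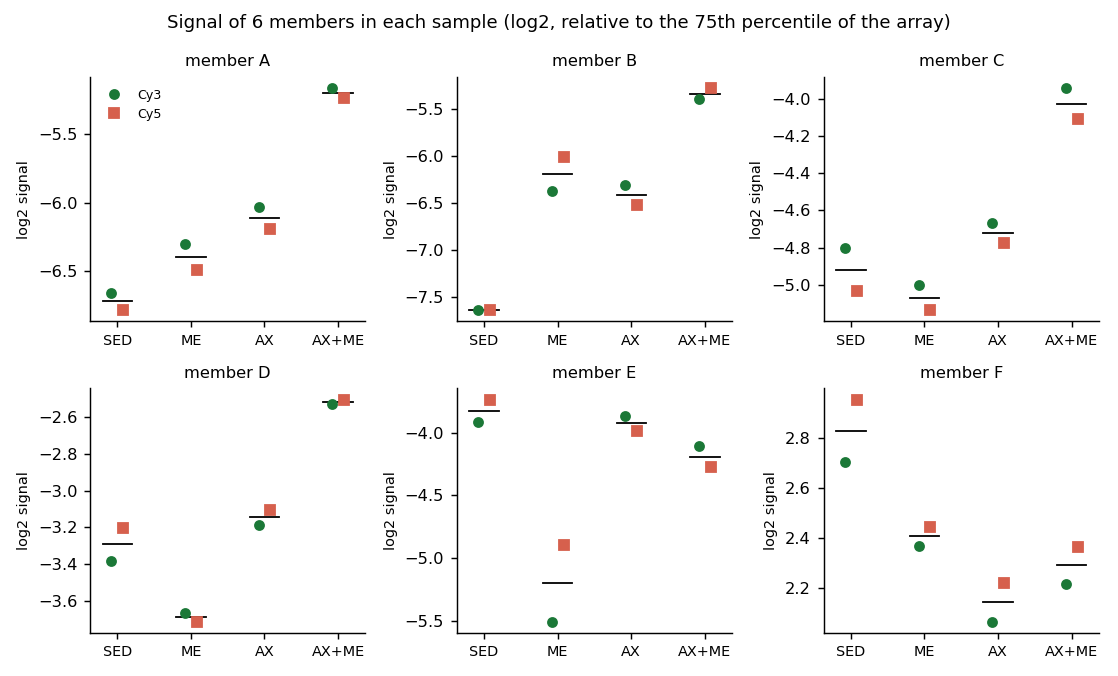
Log2 signal of 6 interval probes in each Cy3 (circle) and Cy5 (square) sample, with the group mean as a line and a vertical scale for each panel. A is chr7:100195448-100195894 R, B is chr2:75447542-75448025 R, C is chr5:37051650-37110575 F, D is chr4:131737612-131738100 R, E is chr14:79724027-79729152 R and F is chr17:32229024-32229663 F. In A to D both AX+ME samples lie above the 6 others, in E both ME samples lie lowest, and in F both SED samples lie highest.

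In AX+ME against ME, which adds astaxanthin to exercise, no interval probe passed, beside 0% of all tested probes. By limma 940 of 5043 had an unadjusted p under 0.05, and the smallest adjusted p was 0.0655. By the 1.5-fold rule in both dyes, 121 were higher and 11 lower (2.4% and 0.218%), beside 1.16% and 0.169% of all tested probes. With quantile normalization the split was 55 and 28. Without the Cy3 sample of ME, 2 interval probes passed, both lower in AX+ME, and without the Cy5 sample of ME, 1 passed, again with ME as a single sample assumed to vary like the others. Of the 121, only 18 were detected on all 8 arrays.

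The same probe of chr7:100195448-100195894 led this comparison, with a difference of 1.20 (SE 0.051, adjusted p = 0.0655 by limma), followed by chr5:37051650-37110575 at 1.04 (SE 0.051). For chr4:131737612-131738100 strand R (489 bp), SED was at -3.38 and -3.20, ME at -3.66 and -3.71, AX at -3.18 and -3.10 and AX+ME at -2.53 and -2.50. ME was lowest and AX+ME highest, 1.17 apart (SE 0.069), and the other tested probe of the strand was 0.40 apart in the same direction. For chr19:58222540-58223077 strand F (538 bp), ME was at -4.39 and -4.34 and AX+ME at -3.50 and -3.37, while its other probe gave -0.015. For chr1:137503023-137625604 strand R both tested probes were higher, by 0.86 (SE 0.061) and 0.84 (SE 0.26).

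The probes lower in AX+ME than in ME were at the detection limit. For chr2:130697320-130729670 strand F, ME was at -6.04 and -4.34 and AX+ME at -7.56 and -7.64, at least 1.66-fold lower. For chr2:60581618-60589907 strand F, ME was at -5.70 and -4.75 and AX+ME at -7.14 and -7.02, at least 1.62-fold lower. For chr4:128727332-128735227 strand F it was at least 1.29-fold lower. The ME samples of all 3 were about a unit or more apart. All 3 were well above background on both ME arrays and on neither AX+ME array, so their sizes are not read as support. For chr7:31709550-31723025 strand F the difference was -0.75 and for chr13:108548345-108679004 strand F -0.75, and none of these passed.

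In ME against SED, the effect of exercise on the placebo diet, no interval probe passed, beside 0% of all tested probes. By limma 884 had an unadjusted p under 0.05, and the smallest adjusted p was 0.121. More were lower than higher at 1.5-fold in both dyes: 47 were lower (0.932%, beside 0.56% of all tested probes) and 19 higher (0.377%, beside 0.187%). With quantile normalization 35 were lower and 27 higher. Without the Cy3 sample of ME, 4 interval probes passed, all higher in ME, and without the Cy5 sample of ME, 1 passed. In such a fit ME is a single sample, which is assumed to vary like the other groups.

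The clearest member here was chr14:79724027-79729152 strand R (5126 bp), where 2 probes, both detected on all 8 arrays, had their lowest values in ME, and neither passed. For the first, SED was at -3.92 and -3.74, ME at -5.50 and -4.89, AX at -3.87 and -3.99 and AX+ME at -4.11 and -4.27. For the second, SED was at -3.57 and -3.39, ME at -4.51 and -4.15, AX at -3.46 and -3.72 and AX+ME at -3.85 and -3.83. ME was lowest for both, by -1.37 (SE 0.21, adjusted p = 0.164 by limma) and -0.85 (SE 0.15) from SED. A shorter interval of the same strand inside it had a difference of 0.075 (SE 0.071).

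For chr16:4871449-4874336 strand R, SED was at -2.67 and -2.64 and ME at -3.74 and -3.42, and both other tested probes were lower in ME, by -0.60 each. The brightest probe of an overlapping interval of that strand had a difference of only -0.011 (SE 0.20). The other lower probes were chr13:74516152-74528284 strand R at -0.70, chr1:88339354-88345004 strand R at -0.80 and chr2:31001736-31006911 strand R at -0.83. Of the higher ones, chr15:82037381-82048125 strand R was at -2.99 and -2.82 in SED and at -2.35 and -2.16 in ME, above all 6 other samples, but its other probe on that strand gave -0.33. Next were chr17:21653676-21667959 strand F at 0.77 and chr6:93570531-93599006 strand R at 0.89. The probes of chr17:17462450-17488725 and chr2:75447542-75448025 were in the same list, but neither was well above background on an array of ME or SED, so no fold is given.

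In AX against SED, the diet in sedentary mice, no interval probe passed, beside 0% of all tested probes. By limma 1141 had an unadjusted p under 0.05 and the smallest adjusted p was 0.113. At 1.5-fold in both dyes 45 were higher and 19 lower (0.892% and 0.377%), beside 0.405% and 0.305% of all tested probes. With quantile normalization the split was 29 and 26, so the lead of higher probes depended on the scaling.

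The brightest of the named probes in this comparison was lower in AX. For chr17:32229024-32229663 strand F (640 bp), SED was at 2.70 and 2.96, ME at 2.37 and 2.44, AX at 2.06 and 2.22 and AX+ME at 2.22 and 2.36. SED was above all other samples, and AX was 0.69 lower on the log2 scale (SE 0.058, adjusted p = 0.113 by limma), while its other probe gave 0.84. Of 2 tested probes in an overlapping interval of that strand, 0 had the same sign, with the brightest at 0.15 (SE 0.14). For chr7:99879368-99889978 strand F, SED was at -0.25 and -0.07 and AX at -1.10 and -0.92, with 1 of 3 other probes of the strand in the same direction. The remaining lower probes were chr4:3009566-3009932 strand R, at least 1.16-fold, chr7:134643558-134644056 strand F at -1.31 and chr13:98571741-98603323 strand F at -1.22.

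Of those higher in AX, chr16:90008636-90015586 strand R was at -3.52 and -3.68 in SED and at -2.82 and -2.98 in AX. Both other probes of its strand and both of the opposite strand had the same sign, and an overlapping interval of that strand had a difference of 0.33 (SE 0.062). For chr15:61919018-61935580 strand R, SED was at -5.54 and -5.57 and AX at -4.79 and -4.70, and the other probe gave 0.52. For chr6:93570531-93599006 strand R the difference was 0.86. The bounds for chr7:100195448-100195894 and chr17:17462450-17488725 were at least 1.13-fold and at least 1.17-fold.

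In AX+ME against AX, which adds exercise to astaxanthin, no interval probe passed, beside 0% of all tested probes. By limma 691 had an unadjusted p under 0.05 and the smallest adjusted p was 0.195. By the 1.5-fold rule, 70 were higher and 34 lower (1.39% and 0.674%), beside 0.765% and 0.374% of all tested probes. Other probes of the same strand shared the sign of the 70 in 36 of 48 cases (75%), where 54.3% of all interval probes were above 0. For the 34 lower probes it was 14 of 39 cases (35.9%), where 45.7% of all interval probes were below 0.

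For chr3:34793853-34800591 strand F, AX+ME was at -3.05 and -3.10, above the 6 other samples at -4.02 to -3.71, while its other probe gave 0.023. For chr4:11102287-11118421 strand R, AX was at -5.47 and -5.75 and AX+ME at -4.57 and -4.83. For chr3:51004595-51005002 strand R the difference was 0.82. The probes of chr7:100195448-100195894 and chr5:37051650-37110575 were higher by 0.92 and 0.70.

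The largest bound on a fold of any named probe was in chr16:30195156-30200385 strand F (5230 bp). It was at -2.58 and -4.81 in AX and at -7.64 to -6.87 in the 6 other samples, none of which was well above background. AX+ME was at least 4.66-fold lower than AX (adjusted p = 0.264 by limma), and the AX samples differed by more than 2 units from each other. The probe entered the test only through AX, where it is high, so its p-value and size are not read as support. Of the others lower in AX+ME, chr9:31873801-31874407 strand F was at -3.41 and -3.36 in AX and at -4.02 and -3.97 in AX+ME, with a difference of -0.62 (SE 0.053). It was low in both exercised groups and high in both sedentary ones. The others were chr3:65729664-65731697 strand R at -0.81, chr13:74642700-74701900 strand R at -0.88 and chr9:75316422-75332567 strand F at -1.67. The last lies inside chr9:75316023-75344401, of which 1 probe on that strand was higher in AX+ME than in SED.

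The interaction asks whether exercise and astaxanthin together differ from the sum of each. No interval probe passed, beside 0% of all tested probes, and by limma 604 had an unadjusted p under 0.05. The 1.5-fold rule placed 108 above the sum and 48 below it (2.14% and 0.952%), beside 1.41% and 0.51% of all tested probes, and 65 had opposite signs in the dyes. With quantile normalization the split was 83 and 61. Above the sum were chr5:37051650-37110575 strand F by 0.85 (SE 0.073), chr3:34793853-34800591 strand F by 0.82, chr4:131737612-131738100 strand R by 1.02 (SE 0.097), chr19:58222540-58223077 strand F by 0.72 and chr13:74516152-74528284 strand R by 0.61. Below it were chr15:61919018-61935580 strand R by -1.04, chr17:21653676-21667959 strand F by -0.82, chr4:82156098-82196298 strand F by -0.89, chr13:15947521-15999246 strand R by -0.74 and chr16:30195156-30200385 strand F, for which no value is given since 3 of the 4 groups were not well above background.

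Averaged over diets, exercise gave no interval probe past the test, beside 0% of all tested probes, with 998 at an unadjusted p under 0.05 by limma. The rule of 1.5-fold in both dyes gave 18 higher and 26 lower (0.357% and 0.516%), beside 0.205% and 0.251% of all tested probes. The named ones not yet given were chr1:107885386-107886798 strand R at 0.81 and chr2:170029045-170034220 strand F at 0.81. The latter was at -5.01 and -5.15 in SED, -4.33 and -4.03 in ME, -4.30 and -4.29 in AX and -3.35 and -3.80 in AX+ME, so that SED was lowest and AX+ME highest. This probe was also called well above background in the channel with no sample on the Cy3 array of AX+ME.

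Averaged over activity, astaxanthin gave none past the test, beside 0% of all tested probes, with 1413 at an unadjusted p under 0.05 by limma and a smallest adjusted p of 0.0848. At 1.5-fold in both dyes 34 were higher and 3 lower (0.674% and 0.0595%), beside 0.314% and 0.0957% of all tested probes. With quantile normalization the split was 17 and 7. For chr14:106562325-106660675 strand F, SED was at -5.63 and -5.55, ME at -5.48 and -5.41, AX at -5.13 and -5.06 and AX+ME at -4.64 and -4.34, so that each astaxanthin sample was above each placebo sample. Those lower were chr7:134643558-134644056 strand F at -0.86, chr6:121035524-121061074 strand R and chr17:3198868-3394643 strand R. The latter pair were each well above background on 2 arrays, so no size is given. For chr6:121035524-121061074, SED was at -6.08 and -4.95, ME at -6.76 and -7.64 and all 4 astaxanthin samples at -7.64 to -7.61. The probe of chr17:3198868-3394643 was at -6.20 and -1.90 in SED and at -7.64 to -6.78 elsewhere, so it rested on 1 sample.

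The 79 named differences came from 46 interval probes, of which 19 were detected on all 8 arrays and 38 had a mean signal under -4. The probe of chr7:100195448-100195894 was named in 6 of the 8 comparisons, and those of chr17:17462450-17488725 and chr5:37051650-37110575 in 5 each. Since the comparisons share samples, such recurrence is not independent.

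Intervals in which 2 probes of a strand passed 1.5-fold with the same sign in each dye were looked up after their values were seen. Besides chr14:79724027-79729152 and chr1:137503023-137625604 there were 5. In AX+ME against SED, both probes of chr6:31001656-31002219 strand R (564 bp) were detected on all 8 arrays and higher, by 0.71 (SE 0.091) and 0.61 (SE 0.087). In the same comparison 2 of 5 tested probes of chr17:88993214-89025839 strand F were higher, by 0.97 and 1.04, and another gave -0.64. In ME against SED both probes of chr1:194659312-194661407 strand R were lower, by -0.75 and -0.64, as were 2 of 3 of chr10:72726649-72799726 strand R, by -0.69 and -0.96. In the interaction both probes of chrX:120300373-120302404 strand F were above the sum, by 0.92 and 0.76. None of these passed the test.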

How the data were processed

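Per the submitters' processing notes, spots were read with Agilent Feature Extraction 11.0.1.1. Per the file headers, the deposited processed signals are linear intensities, background-subtracted and detrended within each array and not scaled between arrays, and the design refers to mm9. The deposited value list holds the same intensities, rounded (every value within 0.5).

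The own-dye processed signal was used for probes in array column 70 or higher. Non-uniform spots were left out, saturated spots kept and spots of a probe averaged. Signals were divided by the 75th percentile of the array, floored at 0.005 and put on a log2 scale. Probes that both arrays of some group placed well above background were tested with limma 3.58.1 (R 4.3.3) on all 8 samples, with a term for each group and for dye (3 residual and 1.604 prior degrees of freedom). P-values are two-sided, with Benjamini-Hochberg adjustment and a threshold of 0.05. The fit was tested on simulated data.

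Where no array of the dimmer group placed a probe above background, the fold is a lower bound. It sets the brighter mean against a limit taken on each array as the larger of the probe signal and the lowest signal called well above background. Gene symbols came from RefSeq accessions (assembly GRCm38.p6), whose coordinates were not used.

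Named were the 10 intervals with the brightest unsaturated probes and 5 intervals for each kind of strand pattern. Per comparison, the probes past the threshold were named. Then came up to 5 higher and 5 lower by unadjusted p among those 1.5-fold apart alike in both dyes. Members, lists and rules were chosen with earlier results of these data known. Values of gene probes inside the intervals were planned and not run, since the gene probes' coordinates were not in the files used here. Normexp was run on median signals, in place of the mean signals planned. The precision rests on 2 arrays a group. Group and place on the slide cannot be told apart.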

Additional observations from a re-analysis of the deposited data

Results flagged for a closer look

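Values outside the comparisons drew attention in 2 places. In the channel that held no sample, 0.658% of interval probes were well above background on the array of the Cy5 sample of ME, the highest of the 8 arrays, and 184 interval probes were so on at least 1 array. Of the named probes, 1 was among them, on 1 array. Interval probes in the array columns below 70, of which there are 6752 and which no comparison used, were well above background in the dye of the sample on 42.1% (Cy5 sample of SED) to 65.5% (Cy3 sample of AX) of spots.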

How the results depend on the processing

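Counts of interval probes depended on the filter, the array columns and the background correction. Where all 8 comparisons are listed, the order is that against SED of ME, of AX and of AX+ME, then AX+ME against ME and against AX, the interaction, exercise and astaxanthin. By limma, no filter gave 1 call in ME against SED, 62 in AX+ME against SED, 10 in AX+ME against ME, 2 in AX+ME against AX, 2 for exercise and 3 for astaxanthin. All array columns gave 16 in ME against SED, 26 in AX against SED, 111 in AX+ME against SED, 6 for exercise and 5 for astaxanthin. Testing only probes detected on all 8 arrays gave 366 in AX+ME against SED and 3 in AX+ME against ME. AX+ME against SED had 0 calls with normexp, with 1338 at an unadjusted p under 0.05, and 2 without the dye term, the replicate block of this design. Leaving out 1 sample, which leaves its group with a single sample assumed to vary like the other groups, gave 0 to 4 calls in ME against SED, 0 to 2 in AX+ME against ME and 0 in AX+ME against SED in each case.

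Probes 1.5-fold higher and lower in both dyes numbered, with normexp, 0 and 3, 3 and 1, 6 and 1, 1 and 0, 2 and 1, 6 and 1, 0 and 0, and 0 and 0. Among probes detected on all 8 arrays they numbered 3 and 6, 13 and 3, 58 and 3, 18 and 0, 16 and 2, 19 and 11, 2 and 1, and 4 and 0. With no filter they numbered 58 and 137, 108 and 66, 319 and 129, 297 and 67, 183 and 111, 305 and 146, 50 and 57, and 100 and 27. Quantile normalization gave 29 higher in AX against SED, 71 lower in AX+ME against SED, 55 higher and 28 lower in AX+ME against ME, and 17 and 7 for astaxanthin.

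Detection on all 8 arrays was 62.3% by the software's looser call of a significant positive signal, 53.5% where both arrays of 1 group were enough, and 42.3% to 44.1% without 1 sample, the highest without the Cy5 sample of AX. The share of intervals with 1 strand detected was 26.5%, 31.4% and, with every probe required, 33.4%, and 39.5% to 41.3% without 1 sample. The median of interval probes minus that of gene probes was -2.64 for probes detected on all 8 arrays, -1.97 with normexp and -3.22 to -3.19 without 1 sample.

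Of 1214 values of named interval probes under 16 settings, 0 changed sign and 44 newly passed the threshold. The sign was largely fixed in advance, because these probes were chosen for moving the same way in both dyes. The probe called in AX+ME against SED lost its call with normexp and without any 1 sample. The deposited value list and keeping non-uniform spots moved none of these counts by over 1.5 times. Gene probes inside the intervals were not run. The cause of these changes was not tested, except that filters and left-out samples change what is tested. With 2 arrays a group and most named probes near background, small differences were not detectable.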
